A study of Homo sapiens with 2 samples.

Results

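The proteasome is the large protease that degrades ubiquitin-tagged proteins, and the genes described here are the 50 protein-coding genes, of 19794 in the annotation, whose symbols begin with PSMA, PSMB, PSMC, PSMD, PSME, PSMF or PSMG. The rule uses the symbol and no measured value, although the set was proposed with earlier results of these data known. The positions of NRF-1 on chromatin were mapped by immunoprecipitation in the human glioblastoma cell line U251, after transfection of a control siRNA (siControl) or of an siRNA against AATF (siAATF), a transcriptional cofactor. Both groups carried the same cell background and the same antibody, and the siRNA was the only labelled difference. The labels name U251, whereas the series design text names U138, another glioblastoma line, and the labels were followed. One peak list was deposited for each condition, with 18014 peaks in siControl and 18454 in siAATF. The protocol speaks of duplicates, but each label carries replicate 1 and no pooling was described. Every difference between the lists is therefore without a replicate check and no p-value is given. Read depth and the AATF level were not part of these lists.

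The proteolytic chamber, the 20S core, is a stack of rings made of 7 alpha (PSMA) and 7 beta (PSMB) subunits. Proteins enter through the alpha rings and are cut by catalytic beta subunits. The 19S cap recognises ubiquitin and unfolds substrates: its base holds 6 ATPases (PSMC) and non-ATPase subunits, and its lid holds further PSMD subunits including the deubiquitinase PSMD14. Chaperones (PSMG1 to PSMG4, PSMD5, PSMD9, PSMD10) assemble both parts, and activators (PSME) can take the place of the cap. Immune cells, thymus and testis use their own subunit versions. The protein profiled here is nuclear respiratory factor 1, the product of NRF1, a factor known for genes of mitochondrial respiration that binds a GC-rich palindrome. It is a different protein from NFE2L1, also abbreviated Nrf1, which is the known inducer of proteasome genes after proteasome inhibition.

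The palindromic core used here was GCGCA followed directly by TGCGC, 10 bases that read the same on both strands. Of the 50 genes, 8 had this core with at most 1 mismatch inside the promoter peak, and all 8 sites lay in the peaks of both lists. That was 19.05% of proteasome promoter peaks in siControl and 18.2% in siAATF, against 23.9% and 24% of coding promoter peaks. The sites are shown because a close match to the sequence known for NRF-1 and the measured occupancy met there. Looser matches in other peaks are described below. Each line gives the gene, then 30 bases of hg19 in the direction of transcription, with the core in capitals:
PSMA4: cagcggttctGCGCATGCGCgggggccata
PSMA3: cattgcttctGCACATGCGCgccgccagcc
PSMA6: ggcctgcttgGCGCAGGCGCataccttcaa
PSMB4: gcttccgttgGCGCAAGCGCtttcattttt
PSMC4: ggtacggacaGCGCATGAGCttatgttgag
PSMC5: ctccgcttccGCGCTTGCGCgccaagacgg
PSMD6: ccacacagggGCGCAGGCGCccaggccggg
PSMD9: tggtgttttgGCGCATGGGCggagccgtag

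PSMA4 held the only exact core, in an annotated exon at chr15:78832759-78832788 on the plus strand, 17 bases before the canonical start of the gene. The others differed from the core by 1 base, written as core base, position from the 5′ end of the core, and site base. PSMA3 (G3A) was at chr14:58711417-58711446, plus strand, and PSMA6 (T6G) at chr14:35761437-35761466, plus strand. PSMB4 (T6A) was at chr1:151372016-151372045, plus strand, and PSMC4 (C8A) at chr19:40476916-40476945, plus strand. PSMC5 (A5T) was at chr17:61904787-61904816, plus strand, and PSMD9 (C8G) at chr12:122326664-122326693, plus strand. PSMD6 (T6G) was at chr3:64009259-64009288 on the minus strand. The PSMA4, PSMC5 and PSMD9 sites fell in annotated exons and the others did not. Of the 8 sites, 7 lay before the canonical start, the farthest at position −146 in bases from it, and the PSMC5 site lay 6 bases after it. All lay within 14 to 88 bases of the midpoint of the siControl peak.

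A promoter was taken as 1 kb on either side of any coding transcript start, and a promoter peak as one that reached into it by at least 1 base. By that rule 42 of the 50 proteasome genes (84%, exact binomial 95% interval 70.9 to 92.8, for counting error over genes only) had an NRF-1 peak in siControl. The share over all coding genes was 61.1%. In siAATF the count was 44 of 50 (88%, interval 75.7 to 95.5), against 60.7% of coding genes. In these lists q is the peak caller's adjusted p-value for a peak against the background used for its library. With a stricter −log10 q of at least 5, 38 (76%) and 39 (78%) kept a peak. The matching share of coding genes was 51.5% in siControl and 51.5% in siAATF. So more of these promoters than of promoters at large were on the lists at either threshold. The 50 genes lie on 17 chromosomes, with 8 on chromosome 14 and 8 on chromosome 17.

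Peak strength was read as fold enrichment over the background that the peak caller used for that library. Because that background differs between libraries, each peak was given a percentile rank among the peaks of the same list, where 100 is the strongest. The median rank of the proteasome promoter peaks was 74.2 in siControl and 71.0 in siAATF, against 63.4 and 64.4 for all coding genes with a peak. For the 31 constitutive subunit genes of core and cap alone it was 63.9 and 66.4, near the coding medians. With ranks from −log10 q, the medians were 69.1 and 68.6 for the whole set, against 65.0 and 66.1 for coding genes. The constitutive subunits had 63.2 and 61.1 by that measure, below the coding medians. By fold enrichment, 12 of 50 genes (24%) in siControl and 10 (20%) in siAATF reached a rank of at least 90. The shares of coding genes were 8.5% and 8.67%. Ranked by −log10 q instead, 4 genes (8%) in each list reached 90, against 9.68% and 9.98%, so the excess at the top was seen in fold enrichment and not in q. The proteasome peaks were narrower, with a median width of 763 bp in siControl against 854 bp over coding genes. The plot of ranks by gene shows how unevenly the strength was spread over the parts of the particle.

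**Figure D1:**
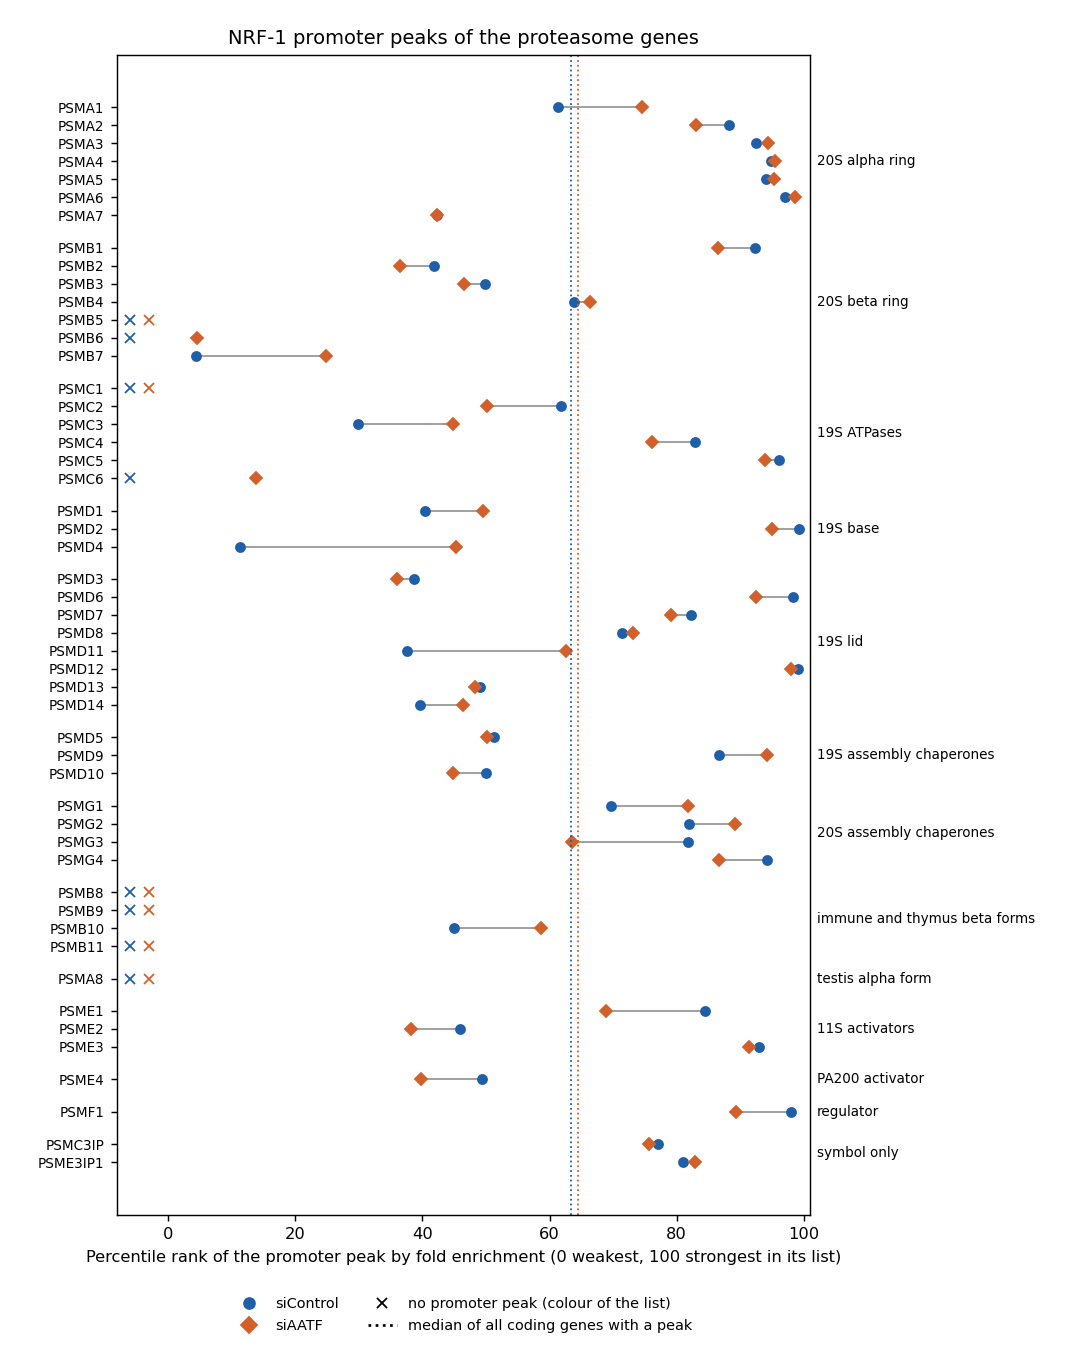
Percentile rank by fold enrichment of the promoter peak of each of the 50 proteasome genes, grouped by role. Circles are siControl, diamonds siAATF, crosses genes with no promoter peak in that list, and dotted lines the medians of all coding genes with a peak (63.4 and 64.4). The alpha ring sits mostly above 80, with PSMA1 and PSMA7 as exceptions, whereas PSMB5, PSMB6 and PSMB7 have no peak or ranks under 25. The PSMA7 symbols coincide.

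The alpha ring of the 20S core was the most strongly occupied ring. All 7 genes had a peak in both lists, each spanning the canonical start, with a median rank of 92.5 in siControl and 94.4 in siAATF. PSMA6 ranked 97.0 and 98.6, PSMA4 94.8 and 95.5, PSMA5 94.0 and 95.4, and PSMA3 92.5 and 94.4 in siControl and siAATF. PSMA2 followed at 88.3 and 83.1. PSMA4 had the highest −log10 q of all 50 genes, 84.1 in siControl and 76.0 in siAATF, and PSMA2 the next, 73.9 and 69.6. PSMA1 was lower at 61.3 and 74.6. PSMA7 ranked 42.4 in both lists by fold, yet its −log10 q of 38.6 and 35.5 was close to that of PSMA3, 39.0 and 40.2. The PSMA7 peak was 1553 bp wide in siControl and also reached the promoter of SS18L1, while that of PSMA3 was 835 bp.

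The beta ring differed within itself. The genes of its non-catalytic subunits all had a peak in both lists. PSMB1 ranked 92.4 in siControl and 86.5 in siAATF, with a peak shared with the promoter of TBP, the TATA-binding protein. PSMB4 ranked 63.9 and 66.4, PSMB3 49.9 and 46.6, and PSMB2 41.9 and 36.4. The genes of the catalytic subunits were the weakest of the core. PSMB5, the chymotrypsin-like subunit, had no promoter peak in either list, the nearest peak lying 22.5 kb from its canonical start in siControl and 12.2 kb in siAATF. PSMB6, the caspase-like subunit, had none in siControl and a peak of rank 4.56 and −log10 q 1.48 in siAATF. PSMB7, the trypsin-like subunit, had a peak of rank 4.41 and −log10 q 1.33 in siControl and of rank 24.8 and −log10 q 2.93 in siAATF. Neither the PSMB6 nor the PSMB7 peak reached −log10 q 5. The split into catalytic and non-catalytic genes was seen after their values and is given as a description.

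The 100 bases before the canonical start of PSMB5, chr14:23504110-23504209 on the minus strand, hold no annotated exon and are shown as an example of a proteasome promoter without a peak. The NRF-1 core was not in them with 1 mismatch or fewer, nor was it in the wider window of 250 bases before to 50 after the start.
PSMB5: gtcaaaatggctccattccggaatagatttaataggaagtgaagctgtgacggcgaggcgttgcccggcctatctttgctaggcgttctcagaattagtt

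Over the 20S core as a whole, 12 of 14 genes in siControl and 13 in siAATF had a peak, with median ranks of 76.1 and 74.6. In the 19S cap, 15 of 17 genes and then 16 had a peak, with medians of 61.8 and 56.3. These cap medians lay below the 63.4 and 64.4 of all coding genes with a peak. Ranked by −log10 q, the core medians were 75.9 and 79.0, the cap medians 48.9 and 56.3, and the coding medians 65.0 and 66.1. By fold enrichment, the highest siControl rank belonged to a cap gene and the lowest to a core gene. Among the ATPases, which form the unfolding ring, PSMC5 ranked 96.1 and 94.0 and PSMC4 82.8 and 76.1. PSMC2 ranked 61.8 and 50.1, but its peak was centred at −2982.5 bp from the canonical start, at another annotated start and shared with DNAJC2, so that with the canonical start alone PSMC2 had no promoter peak. PSMC3 ranked 29.8 and 44.8. PSMC6 had no peak in siControl and one of rank 13.9 and −log10 q 2.04 in siAATF. PSMC1 had none in either list, and its nearest peak was 24.5 kb away in both.

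The other base subunits spanned nearly the whole scale. PSMD2, a scaffold that docks ubiquitin receptors and shuttles, had the highest siControl rank of all 50 genes, 99.3, and ranked 95.0 in siAATF. PSMD1, the other large scaffold, ranked 40.4 and 49.6. PSMD4, a ubiquitin receptor, ranked 11.4 and 45.3. The 8 lid genes all had a peak in both lists, with a median rank of 60.2 in siControl and 67.8 in siAATF. PSMD12 ranked 99.1 and 97.9 and PSMD6 98.3 and 92.4. PSMD7 ranked 82.2 and 79.1 and PSMD8 71.4 and 73.1. PSMD13, which shares its peak with the sirtuin gene SIRT3, ranked 48.998 and 48.3, PSMD3 38.7 and 35.9, and PSMD11 37.5 and 62.5. PSMD14, the deubiquitinase, ranked 39.6 and 46.5 with −log10 q of 4.43 and 5.16, on either side of the stricter threshold.

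The assembly chaperones had a peak at all 7 genes in both lists, against 61.1% and 60.7% of coding genes. Their median rank by fold enrichment was 81.7 in siControl and 81.8 in siAATF, against coding medians of 63.4 and 64.4. Ranked by −log10 q, their medians were 70.4 and 68.8, nearer to the coding medians of 65.0 and 66.1. The 20S chaperones PSMG4, PSMG2, PSMG3 and PSMG1 ranked 94.2, 81.9, 81.7 and 69.7 in siControl and 86.6, 89.2, 63.5 and 81.8 in siAATF. PSMG2 had a further, weaker peak at another start in each list. Among the 19S chaperones PSMD9 ranked 86.6 and 94.3, PSMD5 51.3 and 50.1, and PSMD10, known as gankyrin, 50.1 and 44.8. By fold enrichment, none of the 7 fell under the median rank of the beta ring, which was 49.9 in siControl and 41.5 in siAATF. PSMD5 and PSMD10 lay below the coding medians in both lists, and PSMG3 in siAATF. Ranked by −log10 q, PSMD10 had 36.4 and 34.2 and PSMD5 44.2 and 46.8. The beta ring medians by that measure were 54.4 and 45.5, so PSMD10 fell below them in both lists and PSMD5 in siControl.

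The activators and the regulator were also on both lists. PSME3, the nuclear activator, ranked 93.0 and 91.3 with −log10 q of 69.8 and 68.9, and shares its peak with BECN1. PSMF1, a proteasome-binding regulator, ranked 97.9 and 89.3. PSME4, the activator PA200, ranked 49.3 and 39.8 and its −log10 q went from 6.87 in siControl to 4.59 in siAATF. PSME1 and PSME2 encode the interferon-induced activator and their starts lie 10.4 kb apart on chromosome 14. PSME1 ranked 84.5 and 68.8. PSME2 ranked 46.0 and 38.2 with a peak of 1211 bp in siControl that ended 10 bp before its canonical start and is shared with RNF31. Of the genes in the set by symbol only, PSMC3IP, a recombination protein, ranked 77.0 and 75.7, and PSME3IP1, a partner of PSME3, ranked 81.0 and 82.9.

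Of the 5 immune, thymus and testis forms, 1 had a promoter peak in each list, against 27 of 31 constitutive subunit genes in siControl and 29 in siAATF, and against 61.1% and 60.7% of coding genes. PSMB8 and PSMB9, 2 of the 5, lie in a stretch of chromosome 6 without any peak in either list. PSMB8, PSMB9 and PSMB10 encode the immune counterparts of PSMB5, PSMB6 and PSMB7, PSMB11 the thymus counterpart of PSMB5, and PSMA8 the testis counterpart of PSMA7. PSMB10 had the peak, with rank 44.9 and −log10 q 6.80 in siControl and rank 58.6 and −log10 q 8.86 in siAATF, which was above PSMB7 in both. That peak did not cover the canonical start: its midpoint lay 843 bp inside the gene in siControl and 918.5 bp in siAATF. PSMA8 had no promoter peak, and its nearest peak lay 42.4 kb away, while PSMA7 had one in both lists. PSMB11 had none, and neither did PSMB5, whose start is 7.31 kb away on chromosome 14.

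The absence at PSMB8 and PSMB9 did not stand alone. Both genes lie in the major histocompatibility complex, with starts 10.1 kb apart. Neither list held a peak on chromosome 6 between positions 28351557 and 33378157 of hg19. This stretch, 5026.77 kb long in siControl and 5026.6 kb in siAATF, contains 177 coding genes, 0 of them with a promoter peak. The lists hold 16 peaks in siControl and 18 in siAATF on 5 alternative haplotype contigs of chromosome 6, which carry other versions of this region. Absence of NRF-1 from PSMB8 and PSMB9 therefore cannot be told apart from absence of peaks over the whole region, and the part of the contigs in it was not tested. Without PSMB8 and PSMB9, 1 of the other 3 forms had a peak.

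**Figure D2:**
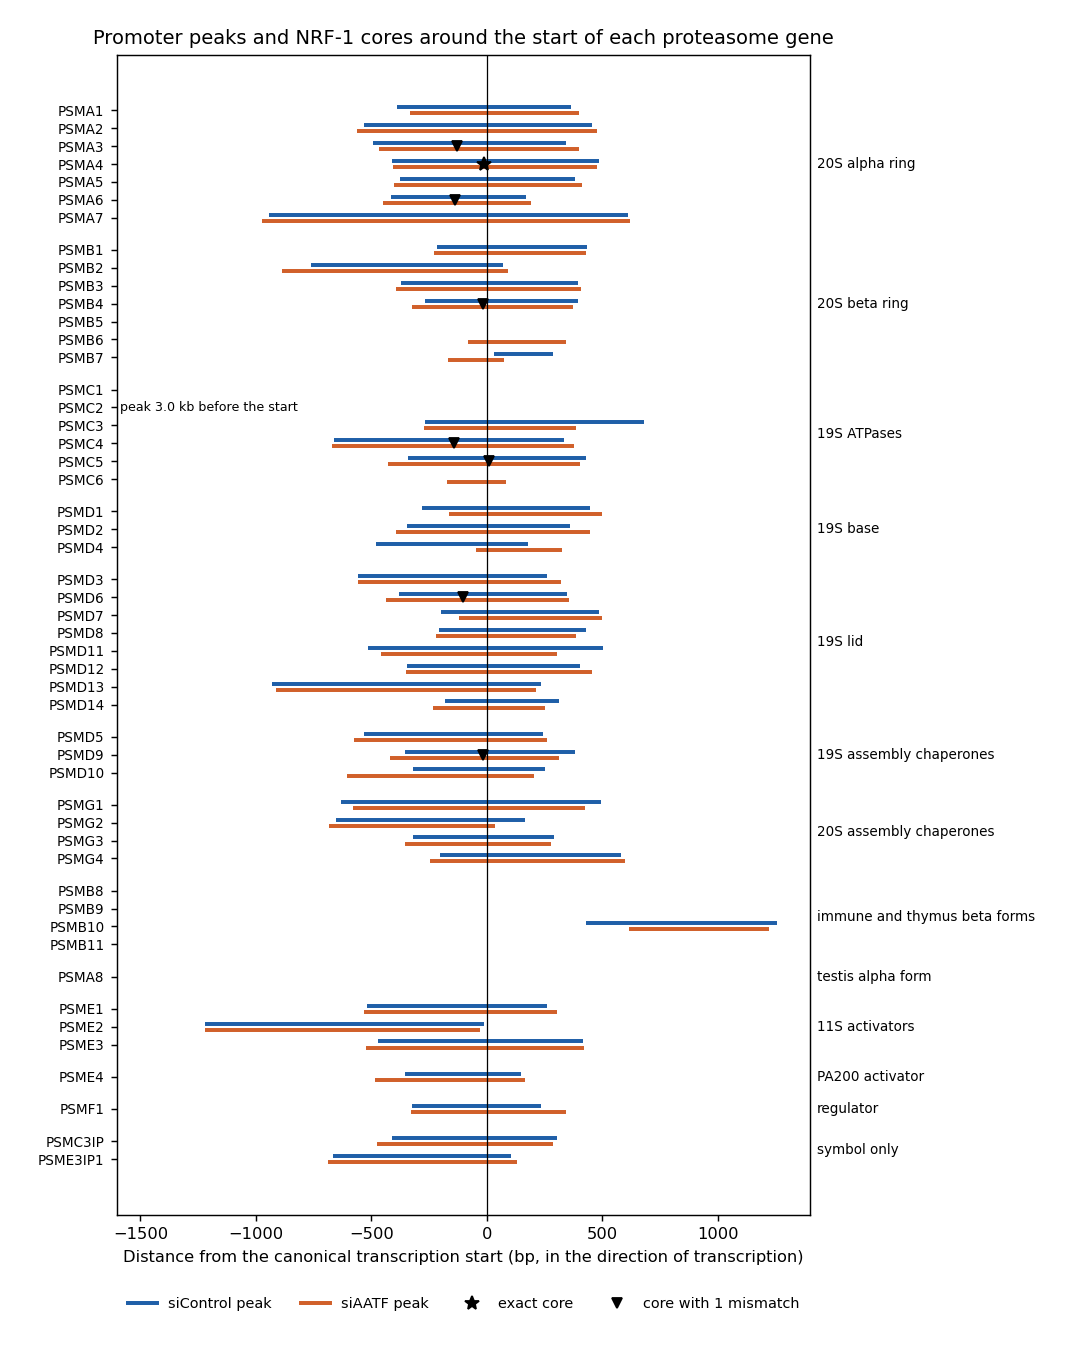
Extent of the promoter peak of each proteasome gene in siControl (blue) and siAATF (orange), in bp from the canonical start and in the direction of transcription, with the exact core (star) and cores with 1 mismatch (triangles). Most peaks span the start (38 in siControl and 41 in siAATF), the PSMB10 peak lies inside the gene, and all 8 cores lie between −146 and 6 bp from the start. The PSMC2 peak lies outside the range drawn.

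Position relative to the start varied little elsewhere. The peak covered the canonical start for 38 of the 42 siControl genes (90.5%) and 41 of the 44 siAATF genes (93.2%), against 83.6% and 84.7% over coding genes with a peak. A promoter peak that also reached the promoter of another coding gene was found for 12 genes in each list, 28.6% and 27.3%, against 24.7% in siControl and 24.7% in siAATF over coding genes. At such sites, among them PSMA2 with MRPL32, PSMC5 with FTSJ3 and PSME4 with ACYP2, the peak cannot be assigned to either gene.

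The core with at most 1 mismatch was present in 8 of 42 proteasome peaks (19.05%, exact binomial 95% interval 8.60 to 34.1) in siControl and 8 of 44 (18.2%, interval 8.19 to 32.7) in siAATF. The shares of coding genes with a promoter peak were 23.9% and 24%, with 1 peak read for each gene. Both lay inside these intervals, which cover counting error over genes only and are not a test of the set. The exact core was in 1 peak, 2.38% and 2.27%, against 3.89% and 3.96%. The 8 genes with a core had a median −log10 q of 42.4 in siControl, ranging from 11.6 (PSMB4) to 84.1 (PSMA4), and the 34 without one had a median of 15.7. In siAATF the medians were 36.8 and 13.5. Over all coding genes the medians with and without a core were 66.4 and 12.3 in siControl and 60.3 and 11.9 in siAATF. The groups overlapped, since PSMB4, with a core, lay below the median of genes without one, and PSMA2, PSME3 and PSMD12 reached 73.9, 69.8 and 63.1 in siControl with no core of at most 1 mismatch.

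Several of the strong peaks without such a core held a looser match. The sites nearest to the start in PSMD2 and PSMD12, which had the highest siControl ranks, carried the same pair of substitutions, C4G and A5G, and are shown with that of PSMA2 (C8T and C10T), which had the second highest −log10 q.
PSMD2: ggcggtgcgaGCGGGTGCGCgcgcagcggg
PSMD12: ggctgcctgaGCGGGTGCGCgggcaacttc
PSMA2: cggccacagtGCGCATGTGTgcggctgtgc

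The PSMD2 window was chr3:184017007-184017036 on the plus strand, the PSMD12 window chr17:65362698-65362727 and the PSMA2 window chr7:42971777-42971806, both on the minus strand. The matches lay 12, 24 and 23 bases before the canonical starts. One arm of the palindrome was intact in each, TGCGC in PSMD2 and PSMD12 and GCGCA in PSMA2. The 10 bases of the PSMD2 and PSMD12 matches also lay 18 bases after the canonical start of PSMA7, in both its peaks. PSMA7 ranked only 42.4 by fold enrichment in both lists, so this variant was not limited to the highest ranks. A limit of 2 mismatches was a setting added after the data were seen. With it, 25 of 42 proteasome peaks (59.5%) in siControl and 26 of 44 (59.1%) in siAATF held a match. The shares of coding genes with a promoter peak were 67.3% and 67.2%. Of the 10 proteasome genes whose siControl peak ranked at least 80 by −log10 q, 5 had a core with at most 1 mismatch and all 10 had one with at most 2, against 66.6% and 95.3% of coding genes. In siAATF the counts were 4 and 11 of 11, against 65.3% and 94.8%. A match is a description of the letters and was not tested as a binding site.

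Other words known for proteasome promoters were counted in the 250 bases before to 50 after each canonical start, on both strands. TGACNNNGC, the word bound by NFE2L1 and NFE2L2, was in 14 of 50 proteasome promoters (28%) against 14.04% of 19515 coding promoters. CCGGAAGT, an ETS family word, was also in 14 of 50 (28%), against 6.14%. TGACGTCA, the cyclic AMP response element, was in 0, against 2.71%. The NRF-1 core with at most 1 mismatch was in 8 (16%) against 10.6%, and the exact core in 1 (2%) against 1.71%. Among constitutive subunits, 7 of 31 held the NFE2L1 word and 7 the NRF-1 core, and PSMC4 held both. The words can overlap other motifs in such GC-rich sequence, whose median GC content was 61.7% for proteasome and 63.7% for all coding promoters.

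The NFE2L1 word is shown, to set beside the NRF-1 cores above, for each constitutive subunit gene whose 10 flanking bases on either side also lay in that window. PSMA7, with 3 such sites, is shown by the one nearest to its start, and PSMC4 holds the reverse complement of the word:
PSMB6: ccaaagagcgTGACAGAGCgctttacgac
PSMB3: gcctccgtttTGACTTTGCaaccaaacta
PSMD3: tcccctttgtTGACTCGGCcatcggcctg
PSMA7: cgtcgccgccTGACGCCGCccgtcgccgg
PSMC4: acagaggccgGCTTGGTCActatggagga
PSMD12: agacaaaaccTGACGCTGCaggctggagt

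On the plus strand, these 29 bases were at chr17:4699430-4699458 for PSMB6, chr17:36908880-36908908 for PSMB3, chr17:38137013-38137041 for PSMD3 and chr19:40477089-40477117 for PSMC4. On the minus strand they were at chr20:60718487-60718515 for PSMA7 and chr17:65362840-65362868 for PSMD12. The word began at −19 bases from the canonical start in PSMB6, −104 in PSMB3, −37 in PSMD3, 27 in PSMC4, −55 in PSMA7 and −165 in PSMD12. Genes with the word had both high and low NRF-1 ranks in siControl, from 99.1 for PSMD12 and 82.8 for PSMC4 to 38.7 for PSMD3 and no peak for PSMB6. NFE2L1 occupancy was not measured here.

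Rank in siAATF was then set against rank in siControl for the 42 genes with a promoter peak in both lists, whose peaks overlapped between the lists in all 42 cases. No share over coding genes is given for that overlap. No proteasome gene had a peak in siControl only, against 1.62% of coding genes. PSMB6 and PSMC6 had one in siAATF only, both under −log10 q 5, against 1.17% of coding genes with a peak in siAATF only. The median change in rank was −1.13 points, from a drop of 18.3 (PSMG3) to a gain of 34.0 (PSMD4), with 19 genes higher and 23 lower. For the 11774 coding genes with peaks in both lists the median change was 0.16 points, with 6019 higher and 5755 lower. The median absolute change was 5.66 points for proteasome genes and 5.12 for coding genes. With ranks taken from −log10 q, the proteasome median was 1.90 points, with 28 higher and 14 lower, and the coding median 0.47 points, with 6539 higher and 5235 lower. The direction of the proteasome median thus depended on the measure used. The changes of single genes thus went both ways.

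**Figure D3:**
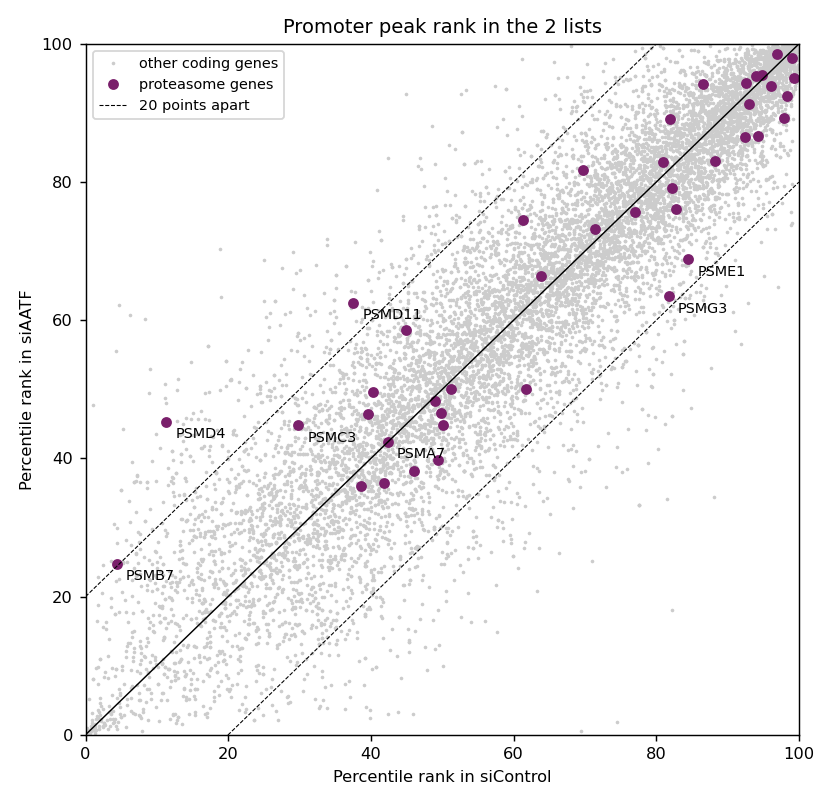
Percentile rank of the promoter peak in siControl (x axis) against siAATF (y axis) for the 42 proteasome genes with a peak in both lists (purple) and the other coding genes (grey). The solid line marks equal rank and the dashed lines 20 points of difference. PSMD4, PSMD11 and PSMB7 lie above the upper dashed line, PSMB7 only just, and no proteasome gene lies below the lower one.

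A change above 20 points was seen for 3 genes, all higher in siAATF (7.14% of 42, against 3.65% of coding genes), and 0 genes were lower by that much (against 2.9%). PSMD4 went from rank 11.4 to 45.3, with fold enrichment of 3.72 and 5.31 and −log10 q of 1.93 and 5.30. PSMD11 went from 37.5 to 62.5, with fold enrichment of 5.02 and 6.37 and −log10 q of 7.43 and 13.0. PSMB7 went from 4.41 to 24.8, with fold enrichment of 3.33 and 4.25. The 256 bp PSMB7 peak of siControl lay after the start and the 243 bp peak of siAATF across it, so the peaks overlapped only in part. All 3 genes began below rank 50, where 3 of 14 proteasome genes and 11.1% of coding genes moved that far. Between rank 50 and 90, 0 of 16 proteasome genes and 5.29% of coding genes did, and from rank 90, 0 of 12 proteasome genes and 17 of 1683 coding genes.

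Which genes passed 20 points depended on the ranking. By −log10 q it was PSMD4 alone, with a gain of 28.8, while 2.59% of coding genes moved that far. When peaks under −log10 q 5 were left out before ranking, it was PSMD11 with a gain of 33.5, PSMG3 with −27.8 and PSME1 with −23.8. Ranked among promoter peaks only, it was PSMD11 and PSMD4, with gains of 26.4 and 26.3, and PSMG3 and PSME1, with −23.6 and −20.5. The share of coding genes moving that far is not given for these last rankings, so no excess can be read from them. PSMG3 went from 81.7 to 63.5 in the full lists and its −log10 q from 29.2 to 19.3. PSME1 went from 84.5 to 68.8 and from 33.9 to 24.7. PSMC3 was 14.98 points higher in siAATF, PSMB10 13.7, PSMA1 13.3 and PSMG1 12.1, and PSMC2 was lower by 11.7. The 7 alpha genes had a median change of 1.38 points. PSME2 had −7.77 and PSME3 −1.70 by fold enrichment, but PSME3 was 2.65 points higher by −log10 q. These differences rest on 1 list for each condition.

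**Figure D4:**
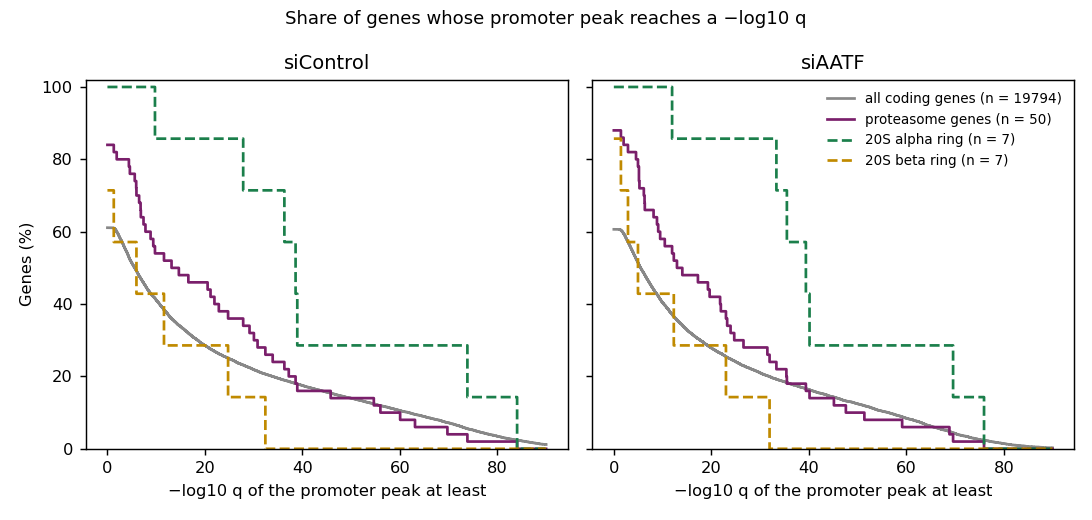
Share of genes (y axis, percent) whose promoter peak reaches a given −log10 q (x axis), in siControl (left) and siAATF (right), for all coding genes (grey), the 50 proteasome genes (purple), the alpha ring (green, dashed) and the beta ring (yellow, dashed). Genes with no peak count as not reaching. The proteasome line starts at 84% and 88%, above the grey line at 61.1% and 60.7%, and meets it near 40. The alpha ring lies above the beta ring until both reach 0.

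Genes that act with the proteasome but lie outside the symbol rule were read in the same way. All 24 on this hand-made list had a promoter peak in both lists, against the 61.1% and 60.7% of coding genes, with a median rank of 72.7 in siControl and 71.8 in siAATF, against 63.4 and 64.4. By fold enrichment POMP, the maturation protein of the 20S core, ranked 99.7 and 98.1, above all 50 proteasome genes in siControl. By −log10 q it ranked 82.2 and 80.5, below several of them, such as PSMA4 at 97.5 and 97.7. The other ranks given here are also by fold enrichment. TXNL1, a cap-associated thioredoxin, ranked 98.9 and 99.5, and PAAF1, a 19S chaperone, 95.2 and 96.0. The small cap subunit SEM1 ranked 24.3 and 22.9 and the ubiquitin receptor ADRM1 49.3 and 44.1. NFE2L1 itself ranked 30.4 and 35.3 with −log10 q of 6.02 and 6.96, NFE2L2 76.0 and 70.3, and NGLY1, the deglycosylase that processes NFE2L1, 98.8 and 97.8. Of the 24, UBQLN2, a shuttle that carries ubiquitinated proteins, moved by more than 20 points, from 81.2 to 45.0, as did 6.55% of coding genes.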

How the data were processed

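ChIPmentation libraries made with an NRF-1 antibody from U251 cells were sequenced by the authors in paired-end mode, aligned to hg19 with Bowtie2 and passed to MACS2 for broad peaks, all within the default settings of a Nextflow workflow written for ATAC-seq. The versions of Bowtie2 and MACS2, and an input or IgG control, were not given in the sources used here. Such a pipeline may shift or trim read ends at transposase cuts, which would move peak edges slightly. The deposited lists hold, per peak, a score, a fold enrichment (a linear ratio over the background used for that library), and −log10 p and −log10 q values. Whether that background came from a control was not stated. The score and the −log10 p were not used.

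Peaks were joined to GENCODE v44lift37 coding genes and each gene took its promoter peak of highest fold enrichment. Sequence came from GRCh37 (the same build). Members, roles, word lists and the genes named (the highest and lowest ranks, genes without a peak, rank changes above 20 points, genes with a core, special forms with their counterparts, then the others by role) were chosen with earlier results of these data known. The catalytic split and a core with up to 2 mismatches were added after seeing the data. With 1 list per condition no test was run. Scripts used Python 3.11.15, pandas 2.3.3, scipy 1.17.1 and pysam 0.24.0, and were tested on simulated peaks. Alternatives were a promoter of 500 bp or 2 kb, canonical starts only, −log10 q of at least 5, other ranks and other core rules.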

Additional observations from a re-analysis of the deposited data

How the results depend on the processing

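Over 12 results and 68 alternatives, 60 values stayed within the interval of the reported share, within 1.5 times the reported count, or within 5.12 points of the reported rank, and 8 did not. Ranked among promoter peaks only, the median rank of the proteasome peaks was 67.4 in siControl and 62.6 in siAATF, against 54.2 and 54.4 for coding genes, and with a −log10 q of at least 5 it was 63.6 in siAATF, against 55.2. Both settings rank each peak among fewer peaks. The share of proteasome peaks with a core was 2.38% in siControl and 2.27% in siAATF for the exact core, and 59.5% and 59.1% with up to 2 mismatches. The count of genes with a rank change above 20 points was 1 with ranks by −log10 q and 3 with −log10 q of at least 5, of which PSMD11 alone was among the 3 reported. By −log10 q, 2.59% of coding genes moved that far, and no such share is given for the other setting. Ranks by −log10 q also turned the median change from −1.13 to 1.90 points. The causes were not tested. With canonical starts only, 41 genes (82%) in siControl and 43 (86%) in siAATF had a peak, against 58.3% and 58.0% of coding genes. No paired analysis was possible because each condition had 1 list. Depth was unknown, so a missing peak is not evidence that NRF-1 was absent.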
